A study of Mus musculus with 6 samples.

Results

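The TGF-beta ligand genes Tgfb1, Tgfb2 and Tgfb3, the receptor genes Tgfbr1, Tgfbr2 and Tgfbr3, the signal transducers Smad2 and Smad3, the inhibitory Smad7 and the Smad corepressor Skil were followed in mouse heart ventricles after deletion of Tead1. These 10 genes, of 20141 genes that could be named on the array, were taken by their names, and every non-control probe carrying a RefSeq accession of one of them was used, 15 probes in all. Of the genes, 5 had 1 probe and 5 had 2. The data are 6 one-colour Agilent arrays of total RNA from male C57bl/6j mice aged 11 to 12 weeks. The 3 icKO mice carried Tead1F/F alleles and Myh6-CreER, a Cre recombinase that is expressed in cardiomyocytes and activated by tamoxifen. The 3 control mice carried the Tead1 flox alleles, and mice of both groups had been given Tamoxifen. No Cre is named for the controls, so an effect of Cre and an effect of losing Tead1 cannot be told apart, and non-cardiomyocytes of the icKO hearts are not targeted by this Cre. The labels call the mice of a group biological replicates.

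TGF-beta is secreted in a latent form that is held in the extracellular matrix and released by integrins, proteases and matrix proteins. The active ligand is bound by the type II receptor Tgfbr2, which switches on the type I receptor Tgfbr1, and Tgfbr1 phosphorylates Smad2 and Smad3, which enter the nucleus with Smad4 and change transcription. In the injured heart the pathway is known for driving fibroblasts to make matrix. The arrays measured messenger RNA only, so they hold no reading of active ligand or of Smad phosphorylation.

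Levels are given as log2 signal relative to the 75th percentile of the same array, so a value of 0 lies at that percentile, and a difference is icKO minus control on that log2 scale. A gene stands for its brightest probe. Of the 22292 features tested, 16.0% passed the test with a higher level in icKO and 28.7% with a lower one (limma, adjusted p under 0.05 by Benjamini-Hochberg), and the median feature lay at -0.14. Each array held 62976 spots, of which 0 were saturated, and between 49.1% and 51.9% of probe spots were well above background. Arrays correlated at 0.987 to 0.992 within a group and at 0.947 to 0.958 between groups. The targeted gene Tead1 was at 4.01, 3.79 and 3.96 in controls and at 3.66, 3.44 and 3.46 in icKO, a difference of -0.40 ± 0.11 (SE; adjusted p = 0.0300, limma). The call was lost in 10 of 21 alternatives, median scaling and the leaving out of control replicate 1 or 3 or icKO replicate 2 or 3 among them, and the value was 0.04 with scaling to the spike-in probes; where its probe lies relative to the deleted part is not known here, so it does not check the labels. The 10 cardiomyocyte markers averaged 8.82 to 8.94 in controls and 8.29 to 8.43 in icKO, and 8 of them were lower. These levels are relative to the 75th percentile, and scaling to spike-in probes raised the median difference of all features by 0.44. The marker lists, here and below, were fitted with the main scaling only, so the size of their shifts depends on it. In such bulk tissue, fewer cells of a type and less RNA per cell cannot be told apart.

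All 3 ligand genes, both signalling receptors, Smad7 and Skil were higher in icKO ventricles, and Tgfbr3, Smad2 and Smad3 did not pass the test. The 7 genes that rose did so by 0.42 to 2.01 on the log2 scale, or 1.33-fold to 4.02-fold, and none of the 10 fell. In each of these 7, all 3 icKO arrays lay above all 3 controls, a pattern seen in 21.6% of all features. The median difference of the 10 genes was 0.78, against -0.14 for all features. Every gene passed the filter on dim probes with all 6 arrays above background.

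**Figure D1:**
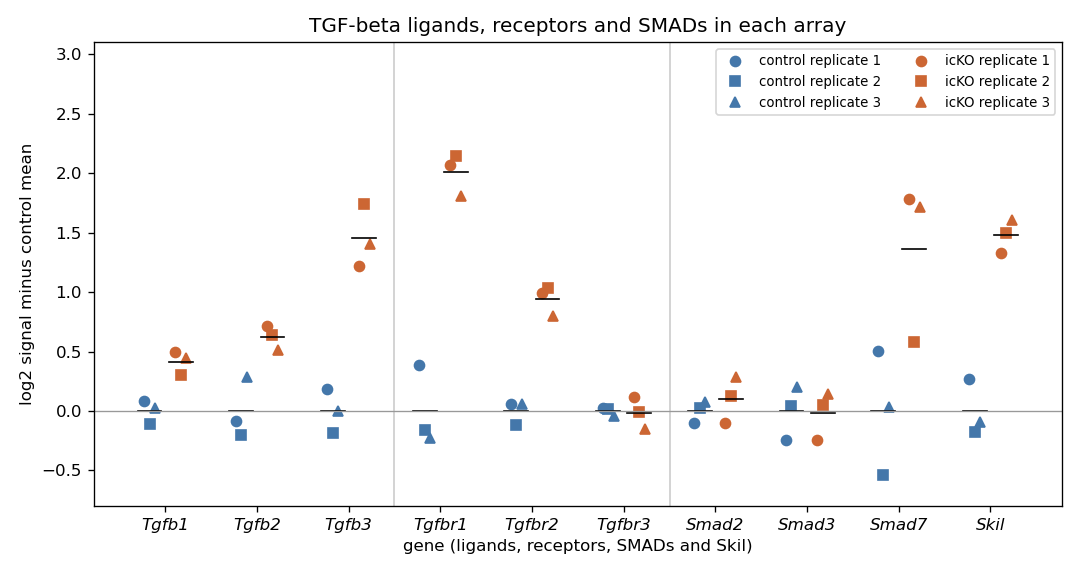
Log2 signal of each gene's brightest probe in the 6 arrays, minus the gene's control mean, with one symbol per mouse (blue, control; orange, icKO) and black bars at the group means. The icKO points lie above every control point for Tgfb1, Tgfb2, Tgfb3, Tgfbr1, Tgfbr2, Smad7 and Skil, and the groups overlap for Tgfbr3, Smad2 and Smad3.

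Among the ligands, Tgfb3 showed the largest difference. Its level in the 3 controls was 2.27, 1.90 and 2.09, and in the 3 icKO mice 3.30, 3.83 and 3.49. Every icKO heart thus exceeded every control by more than the spread inside either group. The difference was 1.45 ± 0.17 (SE, n = 3 and 3; adjusted p = 0.00136, limma), a 2.74-fold rise with a 95% interval of 2.07-fold to 3.62-fold, and 3.62% of all features rose more. The array carried this probe in repeated spots, and the SD over the 8 to 10 spots used was 0.031 to 0.0631 within an array, below the SD of 0.18 between controls and 0.27 between icKO mice.

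Tgfb1, the isoform made by many cell types including macrophages and platelets, rose least. It stood at 0.68, 0.49 and 0.63 in controls and at 1.10, 0.90 and 1.05 in icKO. The groups did not overlap, but the gap between the highest control and the lowest icKO array was small. The difference was 0.42 ± 0.10 (SE; adjusted p = 0.0199, limma), or 1.33-fold with an interval of 1.12-fold to 1.59-fold. The call was lost without control replicate 2 (0.36, adjusted p = 0.0625), control replicate 3 (0.43, adjusted p = 0.0549) or icKO replicate 3 (0.40, adjusted p = 0.0609), and when dim probes were not filtered (adjusted p = 0.0941). Of the platelet markers on the array, 5 of 8 passed the filter and 0 of those 5 was called by limma, Pf4 alone having an unadjusted p under 0.05; their mean level was -1.16 to -0.22 in controls and 2.52, -0.97 and -0.62 in icKO replicates 1, 2 and 3. Without icKO replicate 1, the array with the high platelet value, Tgfb1 differed by 0.37 (adjusted p = 0.0472). Of 9 macrophage markers 8 rose, where 16.0% of all features did. The part of platelets or macrophages in the Tgfb1 rise was not tested.

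Tgfb2, the isoform that depends most on the co-receptor Tgfbr3 for binding, was measured by both of its probes. The brighter one was at 1.10, 0.99 and 1.47 in controls and at 1.90, 1.82 and 1.70 in icKO, so control replicate 3 came closest to the icKO arrays. The difference was 0.62 ± 0.15 (SE; adjusted p = 0.0172, limma), a 1.54-fold rise with an interval of 1.20-fold to 1.97-fold. The dimmer probe gave 0.50 ± 0.12 (adjusted p = 0.0163 in a fit of every probe by itself). The call was lost without control replicate 1 (0.58, adjusted p = 0.0546) and when dim probes were not filtered (adjusted p = 0.0710).

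The receptors that carry the signal rose and the co-receptor did not pass. Tgfbr1, the type I receptor kinase, had the largest difference of the 10 genes. Its brighter probe read 0.07, -0.48 and -0.55 in controls and 1.74, 1.82 and 1.48 in icKO. The lowest icKO heart lay far above the highest control, which was control replicate 1. The difference was 2.01 ± 0.19 (SE; adjusted p = 0.000749, limma), a 4.02-fold rise with an interval of 2.91-fold to 5.54-fold, and 1.85% of all features rose more. The dimmer Tgfbr1 probe stood at -2.24, -2.87 and -3.03 in controls and at -0.76, -1.34 and -0.97 in icKO, a difference of 1.69 ± 0.25 (adjusted p = 0.00294 in the probe fit).

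Tgfbr2, the type II receptor that binds the ligand, rose with the second largest difference of the receptors. It was at 3.26, 3.09 and 3.27 in controls and at 4.19, 4.24 and 4.0 in icKO. Mice of a group lay close together, with an SD of 0.10 in controls and 0.13 in icKO. The difference was 0.94 ± 0.11 (SE; adjusted p = 0.00141, limma), or 1.92-fold with an interval of 1.60-fold to 2.31-fold. Its dimmer probe differed by 0.60 ± 0.14 (adjusted p = 0.0154 in the probe fit), the same direction at a smaller size.

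Tgfbr3, also called betaglycan, is a membrane proteoglycan that presents ligand to the signalling receptors. It was at 2.72, 2.71 and 2.65 in controls and at 2.81, 2.68 and 2.54 in icKO. The groups overlapped, with icKO replicate 1 the highest and icKO replicate 3 the lowest of all 6 arrays. The difference was -0.01 ± 0.10 (SE; adjusted p = 0.927, limma), with a 95% interval of 0.83-fold to 1.18-fold. Scaling moved it to between 0.05 and 0.43, the last with spike-in probes (adjusted p = 0.0750).

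**Figure D2:**
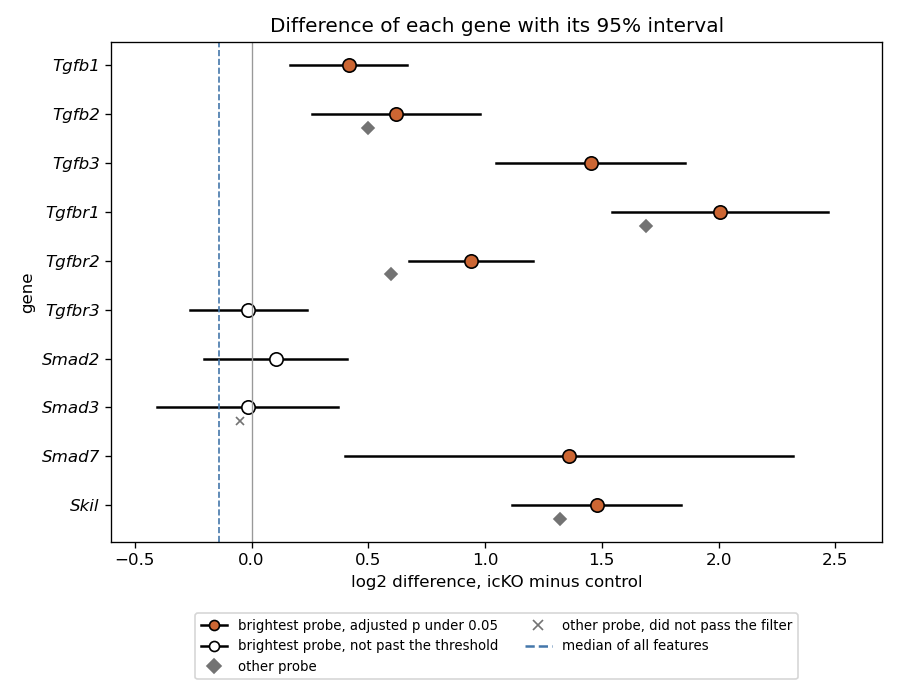
Log2 difference between icKO and control of each gene (circles, brightest probe; orange where the adjusted p was under 0.05, white otherwise) with 95% intervals as bars; grey diamonds are second probes, a cross is a second probe that did not pass the filter, and the dashed line is the median of all features at -0.14. Second probes of Tgfb2, Tgfbr1, Tgfbr2 and Skil lie on the same side of 0 as the first, between 0.50 and 1.69.

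The RefSeq promoter table (GRCm38.p6) held 250 bases before a transcript start for 5 of the 10 genes outside the chromosome that carries Smad2 and Smad7, in 6 windows. Those of Tgfb1 and Smad3 are left out, and like the upstream Tgfbr1 window and that of Tgfbr2 they hold no CAGACA. The windows of Tgfb2 and of both signalling receptors are shown, because each of these genes had 2 probes that rose. The windows lie at chr1:186705990-186706239, minus strand (Tgfb2), chr4:47352972-47353221, plus strand and chr4:47385966-47386215, plus strand (Tgfbr1) and chr9:116175364-116175613, minus strand (Tgfbr2). They are written 5′ to 3′ along the gene, and capitals mark the Smad-type sequence CAGACA.
Tgfb2: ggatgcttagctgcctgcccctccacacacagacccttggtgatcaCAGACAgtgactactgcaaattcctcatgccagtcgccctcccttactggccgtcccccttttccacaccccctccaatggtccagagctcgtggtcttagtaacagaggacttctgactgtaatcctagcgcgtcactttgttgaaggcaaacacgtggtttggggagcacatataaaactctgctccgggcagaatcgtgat
Tgfbr1, upstream start: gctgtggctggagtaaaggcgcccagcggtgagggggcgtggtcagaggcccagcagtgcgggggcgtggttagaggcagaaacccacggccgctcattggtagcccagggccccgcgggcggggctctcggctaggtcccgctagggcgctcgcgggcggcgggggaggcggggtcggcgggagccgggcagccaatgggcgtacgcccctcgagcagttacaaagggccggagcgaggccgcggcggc
Tgfbr1, downstream start: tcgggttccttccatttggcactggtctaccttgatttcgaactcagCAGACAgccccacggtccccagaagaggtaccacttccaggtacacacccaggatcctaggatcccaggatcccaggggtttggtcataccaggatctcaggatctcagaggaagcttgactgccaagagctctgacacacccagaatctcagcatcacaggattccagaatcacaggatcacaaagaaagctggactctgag
Tgfbr2: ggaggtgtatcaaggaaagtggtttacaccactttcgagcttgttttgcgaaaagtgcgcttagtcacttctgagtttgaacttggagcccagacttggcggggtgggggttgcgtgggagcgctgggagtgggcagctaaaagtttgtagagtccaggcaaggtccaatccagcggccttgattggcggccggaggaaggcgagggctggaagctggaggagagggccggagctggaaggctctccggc
The TEAD-type sequence GGAATG, searched on both strands, stood in 0 of the 6 windows, against 12.6% of all 32851 promoter windows of the same length. CAGACA stood in 2 of the 6, on the plus strand, its first base 204 bases before the start in Tgfb2 and 203 bases before the downstream start in Tgfbr1, against 17.1% of all windows. The shorter Smad-type core GTCT, on either strand, stood in 5 of the 6 windows and in 82.9% of all windows. The upstream Tgfbr1 window was 74.8% G and C, where the median promoter had 52.4%. A match of letters is not a site of binding, and these windows are short, so nothing about either factor follows from them.

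Neither signal transducer passed the test, and both genes of feedback inhibition rose. Taken inside each array, the difference of Smad7 from Smad2 or Smad3 overlapped between the groups (p = 0.20 for each, exact permutation test). A split of Smad7 from the transducers is therefore not shown. Smad2 stood at -0.85, -0.73 and -0.67 in controls and at -0.85, -0.63 and -0.46 in icKO, and Smad3 at 1.22, 1.51 and 1.67 against 1.22, 1.52 and 1.60. In both genes the groups overlapped nearly throughout. The differences were 0.10 ± 0.13 (SE; adjusted p = 0.535, limma) for Smad2 and -0.02 ± 0.16 (adjusted p = 0.942) for Smad3, with 95% intervals of 0.87-fold to 1.33-fold and 0.76-fold to 1.29-fold. With spike-in scaling Smad2 was called higher (0.54, adjusted p = 0.0481). A second Smad3 probe was well above background on 1 of 6 arrays and was not tested.

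Smad7 competes with Smad2 and Smad3 at the receptor and brings ubiquitin ligases to it, and its transcription is itself raised by TGF-beta. Its level in the 3 controls was -1.29, -2.33 and -1.76, and in the 3 icKO mice -0.01, -1.21 and -0.08. It was the most variable of the 10 genes in both groups, with an SD of 0.52 in controls and 0.67 in icKO, and icKO replicate 2 lay only just above the highest control. The difference was 1.36 ± 0.40 (SE; adjusted p = 0.0331, limma), or 2.56-fold with an interval of 1.32-fold to 4.98-fold. The call was lost without control replicate 2 (1.09, adjusted p = 0.0891), control replicate 3 (1.38, adjusted p = 0.0772), icKO replicate 1 (1.15, adjusted p = 0.0921) or icKO replicate 3 (1.18, adjusted p = 0.0949), and when dim probes were not filtered (adjusted p = 0.102). Within slide row 1 the difference was 0.31 and within row 2 it was 2.29, and with slide row as a factor the call was lost (1.30, adjusted p = 0.0688). With normexp background correction it was 0.81.

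Skil encodes SnoN, a corepressor that holds Smad complexes silent and whose gene is a direct target of the pathway. It was at 0.65, 0.21 and 0.29 in controls and at 1.71, 1.88 and 1.99 in icKO. All icKO arrays lay well above control replicate 1, the highest control. The difference was 1.48 ± 0.15 (SE; adjusted p = 0.000877, limma), a 2.79-fold rise with an interval of 2.17-fold to 3.58-fold. The second Skil probe was at -1.56, -1.72 and -1.56 in controls and at -0.38, -0.18 and -0.32 in icKO, a difference of 1.32 ± 0.10 (adjusted p = 0.000402 in the probe fit). Of the 14 member probes past the filter, 11 were called higher in that fit, where 16.1% of all probes were; they are every probe of the 7 genes that rose.

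Position on the slide could not be fully separated from the groups, since the controls took columns 1, 1 and 2 of the slide and the icKO arrays took 2, 3 and 3. With column as a factor, chosen after the file headers were read, the estimate rests on control replicate 3 and icKO replicate 1. It was 2.29 for Tgfbr1 (adjusted p = 0.0299) and 1.42 for Skil (adjusted p = 0.0432), and those 2 were the genes still called. The others stood at 1.21 for Tgfb3 (adjusted p = 0.0633), 0.93 for Tgfbr2 (adjusted p = 0.0598), 1.74 for Smad7 (adjusted p = 0.188), 0.42 for Tgfb2 (adjusted p = 0.177) and 0.47 for Tgfb1 (adjusted p = 0.177), and 5.24% of all features were called higher.

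Scaling by another constant for each array shifts all differences by a common amount. Relative to the 75th percentile, scaling to the array median added 0.16 to the median difference of all features, and scaling to spike-in probes added 0.44. The 7 genes were called higher with the array median (19.7% of all features higher), quantile normalization (19.1%), the authors' deposited value table (18.4%) and normexp (16.5%). With spike-in probes, where 32.2% of all features were called higher, Smad2 joined them. Without a filter on dim probes 4 of the 10 were called, Tgfb3, Tgfbr1, Tgfbr2 and Skil, against 4.32% of 49243 features. Leaving out control replicate 1, 2 or 3 gave 6, 5 and 5 of the 10 called higher, where 13.5%, 12.5% and 12.6% of all features were. Leaving out icKO replicate 1, 2 or 3 gave 6, 7 and 5, where 14.4%, 13.3% and 12.6% were.

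**Figure D3:**
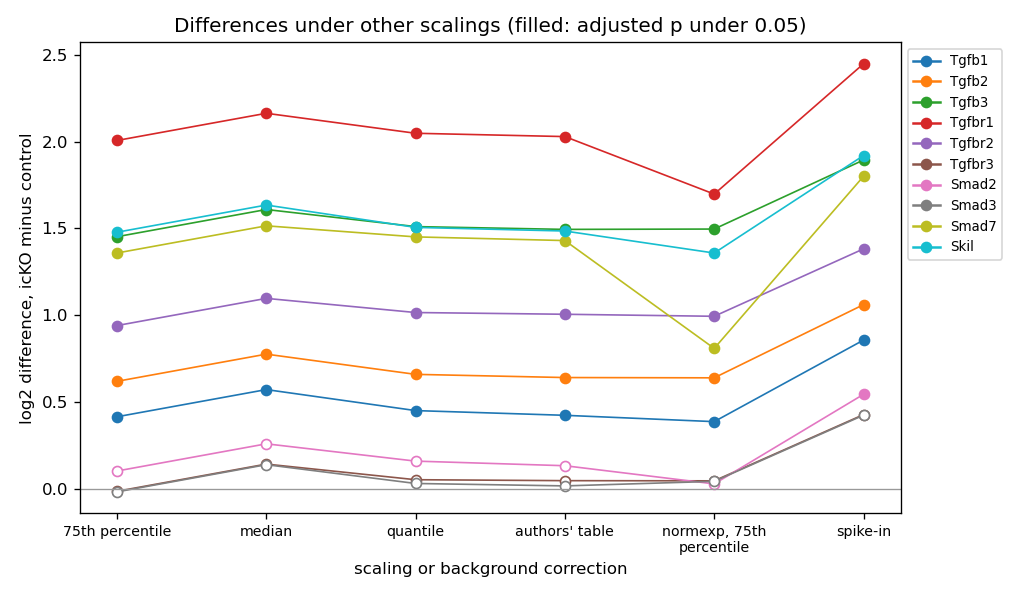
Log2 difference of the 10 genes under the main scaling (75th percentile), 3 other scalings, the authors' deposited value table and normexp background correction; filled points have an adjusted p under 0.05, and lines join the values of one gene. The 7 genes that rose lie between 0.39 and 2.45 in these settings, and Tgfbr3, Smad2 and Smad3 lie between -0.02 and 0.54.

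Differences between 2 genes taken inside each array do not move when an array is scaled by a constant, and they were compared for the 12 pairs inside a role. Tgfb3 exceeded Tgfb1 in its change by 1.04 and Tgfb2 by 0.83. Tgfbr1 exceeded Tgfbr2 by 1.07 and Tgfbr3 by 2.02, and Tgfbr2 exceeded Tgfbr3 by 0.95. Skil exceeded Smad2 by 1.37 and Smad3 by 1.49. In these 7 pairs the 3 icKO arrays did not overlap the 3 controls, which gives the smallest p that an exact two-sided permutation test of 3 against 3 allows (p = 0.10; 0.171 after Benjamini-Hochberg adjustment over 12 pairs), so no pair can pass a threshold of 0.05. Tgfb1 and Tgfb2 overlapped (0.20 apart, exact p = 0.30), and so did each pair of Smad7 with another gene of its role and the pair of Smad2 and Smad3.

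Genes listed for latency and activation of the ligand were mostly higher. The list mixes roles and includes Emilin1, Dcn, Bgn, Fmod and Aspn, all called higher. Its count is therefore not a measure of ligand activation. Of 26 listed, 23 passed the filter, 17 rose and 2 fell, and their median difference was 1.31. Among all features 16.0% rose and 28.7% fell. Fbn2 and Fmod passed the filter only through icKO, and Itgb6 only through the controls. With all arrays required above background, 15 of the list rose and 1 fell. In the gene family named for latent TGF-beta binding, Ltbp2 rose by 5.82 ± 0.32 (SE; adjusted p = 0.000173, limma). The family is grouped by name, and binding of ligand was not measured, so the Ltbp2 rise is not a reading of latency. Ltbp3 rose by 1.96 ± 0.10 and Ltbp4 by 0.78 ± 0.12, while Ltbp1 fell by 0.37 ± 0.12 (adjusted p = 0.0465). That call was lost in 12 of 21 alternatives, among them no filter on dim probes, slide row, slide column and the leaving out of control replicate 1 or 3 or icKO replicate 2 or 3, and the Ltbp1 difference was 0.08 with spike-in probes. Thrombospondin Thbs1, which can activate the latent complex, rose by 4.18 ± 0.22. Of the integrin subunits, Itgb5 rose by 1.31 ± 0.09 and Itgb6 fell by 3.49 ± 0.66 (adjusted p = 0.00756), with 2 of 3 icKO arrays above background. Itgb1 was also called higher (0.45, adjusted p = 0.0413, limma). Itgav (0.50, adjusted p = 0.182) and Itgb3 (1.71, adjusted p = 0.0739) were not called. The Itgb6 difference was -2.15 with normexp and -5.41 with slide column as a factor, so its size is poorly fixed.

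The remaining receptor and Smad machinery was less one-sided. Of 31 listed genes 29 passed the filter, 9 rose, 3 fell and 17 did not pass, with a median difference of 0.14. Among all features 16.0% rose and 28.7% fell. Pmepa1, a membrane protein that is induced by TGF-beta and withholds Smads from the receptor, rose by 1.55 ± 0.13 (SE; adjusted p = 0.000541, limma). Smad6, the inhibitory Smad of the BMP branch, rose by 1.20 ± 0.15, the corepressor Tgif1 by 1.31 ± 0.20 and the kinase gene Map3k7, which acts in the Smad-independent branch, by 0.57 ± 0.09. Zfyve9, the anchor protein that brings Smads to the receptor, fell by 0.68 ± 0.08, Fkbp1a, which keeps the type I receptor inactive, by 0.56 ± 0.10 and Strap by 0.53 ± 0.10, none of which was called with spike-in scaling. Fkbp1a was at -0.21 and not called when its probes were averaged (adjusted p = 0.107), and Strap was not called with median scaling. With spike-in scaling 16 of the list rose and 0 fell, where 32.2% of all features rose and 7.54% fell. With slide column as a factor 1 rose and 0 fell, where 5.24% of all features rose and 8.56% fell. Without control replicate 2 or icKO replicate 3 the count that rose was 5, where 12.5% and 12.6% of all features rose. With no filter on dim probes it was 4, where 4.32% rose.

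Of 30 genes known to respond to TGF-beta, 21 rose and 0 fell in the main comparison, with a median difference of 1.61. Among all features 16.0% rose and 28.7% fell. Cdkn2b, Junb, Il11, Lox and Ncam1 passed the filter only through icKO. With all arrays required above background, 18 of the list rose. This list and the others were chosen with earlier results of these data known, so the count is not a test of the pathway. The rises with the smallest p were the oxidase gene Nox4 (4.73 ± 0.18, SE; adjusted p = 8.25e-05, limma), the matrix genes Comp (6.05 ± 0.26) and Postn (4.49 ± 0.27) and the matricellular gene Ccn2 (3.61 ± 0.24). Acta2, the actin of smooth muscle and myofibroblasts, was at 4.15 ± 0.80 (SD) in controls and 3.38 ± 0.19 in icKO (difference -0.77 ± 0.38, adjusted p = 0.146), and without control replicate 2, the lowest control, it was called lower (-1.15, adjusted p = 0.0311). Acta2 was picked after its values were seen. Many of these genes also answer to other signals. With slide column as a factor 12 of the list rose, where 5.24% of all features did.

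**Figure D4:**
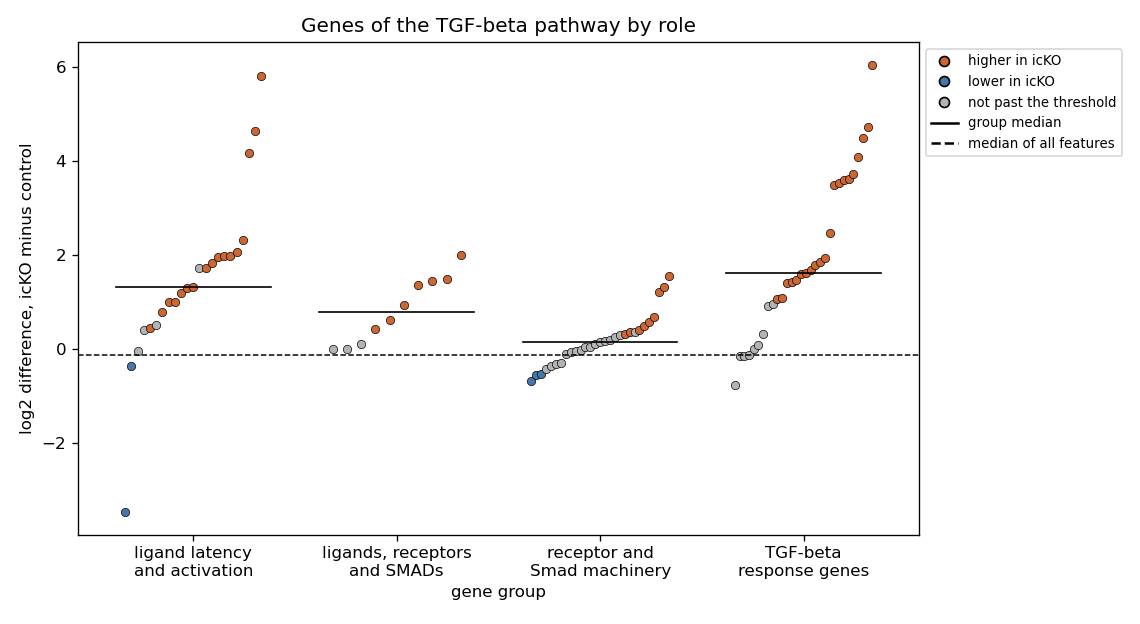
Log2 difference between icKO and control of each tested gene in 4 groups (23 latency and activation genes, the 10 ligand, receptor and SMAD genes, 29 other receptor and Smad genes, 30 response genes), ordered by size and coloured by call; solid bars are group medians and the dashed line is the median of all features. Medians are 1.31, 0.78, 0.14 and 1.61 against -0.14.

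Marker lists of other cell types did not all move the same way. Among all features 16.0% rose and 28.7% fell. Of 10 fibroblast markers 6 rose and 0 fell, and their mean level was 3.15 to 3.83 in controls and 4.36 to 4.67 in icKO. Of 9 macrophage markers 8 rose and 0 fell, at 1.12 to 1.76 against 2.38 to 2.99. The groups did not overlap in either list. Of 10 endothelial markers 1 rose and 3 fell, at 3.37 to 3.50 against 3.16 to 3.61, and for smooth muscle and pericytes 2 of 10 rose while 3 fell, at 1.97 to 2.37 against 1.85 to 2.20. The fibroblast markers Tcf21, Dpt, Gsn and Ddr2 did not pass the test. Dcn, Col1a1 and Col1a2 of the fibroblast list and Acta2, Tagln and Cnn1 of the smooth muscle list also stand in the pathway lists. The part of cell composition in the rise of the ligand, receptor and SMAD genes was not tested.

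The genes whose profile over the 6 arrays came closest to a risen member were found by Euclidean distance between log2 values, each centred on its own mean, among 12512 named genes. They were Ttc1 and Tbc1d15 for Tgfb1 (distance 0.0433 and 0.0693), Dcun1d3 and A3galt2 for Tgfb2 (0.105 and 0.168), and Slc2a1 and Lrp1 for Tgfb3 (0.12 and 0.151). For the receptors they were Aldh1a3 and Csf2rb for Tgfbr1 (0.218 and 0.219) and Plxdc2 and Pkd2 for Tgfbr2 (0.118 and 0.135). Mmp23 and Bcl2 lay closest to Skil (0.0756 and 0.115). For Smad7 the nearest genes, Adgrg6 and Hmox1, lay at 0.611 and 0.621. A gene that varies more between arrays lies farther from others on this measure, and Smad7 was the most variable of the 10 genes. Distances of different members therefore do not compare how close their partners are. With normexp background correction Dcun1d3 differed by 0.04, A3galt2 by -0.11 and Adgrg6 by 0.21, and none of them was called. The main call was lost in 9 of 21 alternatives for Dcun1d3, 12 of 20 for A3galt2 and 9 of 21 for Hmox1.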

How the data were processed

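Each of 6 ventricle RNAs went on its own one-colour array, per the labels. Deposited scanner files give linear spot intensity, background-subtracted inside each array and unscaled between arrays, per the file headers, which name Feature Extraction 11.0.1.1, array design 028005 and build mm9 (version 9.1 in the submitters' processing notes). The authors' deposited value table holds linear intensity whose columns correlated with the scanner values at 0.9995 or more on the log2 scale; no source used here gives its scaling, its column medians were 18.37 to 18.47, and its values are uncentred.

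Processed signals were log2-transformed, each array's 75th percentile was subtracted, outlier-flagged spots were dropped and spots of a probe averaged. Probes well above background on every array of at least 1 group were retained (26166 of 55681). Probes were named by RefSeq accession in a GRCm38.p6 table (26576 probes of 20141 genes). The brightest retained probe represents a gene, and each unnamed probe was a feature of its own. limma 3.58.1 (R 4.3.3, lmFit and eBayes) compared 3 with 3 arrays, with Benjamini-Hochberg adjustment over 22292 features and a threshold of 0.05. All arrays shared 1 slide and 1 scan, so no slide block was run; the number of arrays limits precision. Normexp used the median signal, the mean signal not being a column of these files. On simulated data of 22292 features, 200 of them changed, known changes were recovered at 8.96% (1.5-fold), 44.8% (2-fold) and 83.3% (4-fold), with 6 false calls among 97. The main fit called 9979 features, so these rates do not give its power.

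The genes and lists were chosen with earlier results of these data known. Named genes are all members, the up to 4 genes of each pathway list with the smallest p in each direction, and the 2 nearest profiles of each member called. Acta2 was added after its values were seen. So were Ltbp4, Itgb1, Itgav and Itgb3, whose values are from the main comparison only. Alternatives were other scalings, background correction, filters, probe rules, variance models, array weights, replicate and slide position terms, and each array left out.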

Additional observations from a re-analysis of the deposited data

How the results depend on the processing

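Of the 10 genes, Tgfbr1 and Skil kept their direction and call under all 21 alternatives (1.70 to 2.45 and 1.36 to 1.92). The 7 genes that rose kept their direction under all 21, and none of the 10 was called lower in any. The count of members called higher was 4 with no filter on dim probes and 2 with slide column as a factor, and 5 to 7 with 1 array left out, where 12.5% to 14.4% of all features were called higher. The cause was not tested. Replicate numbers did not pair the arrays (deviations of same-numbered arrays correlated at -0.05, -0.13 and 0.001, and 0 of 3 correlated best with its own number): with the replicate block 6 members were called higher, as were 12.5% of all features, Tgfb2 losing its call (0.62, adjusted p = 0.0511), and 1 latency and activation gene was called lower.

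Differences near 0 changed sign. Tgfbr3 was 0.14 with median scaling, 0.0533 with quantile normalization, 0.0468 with normexp, 0.0478 with the authors' table, 0.43 with spike-in scaling, 0.16 with slide column, and -0.0804 to 0.0544 with 1 array left out. Smad3 was 0.14 with median scaling, 0.0316 with quantile normalization, 0.0438 with normexp, 0.0176 with the authors' table, 0.42 with spike-in scaling, -0.45 with slide column, and -0.14 to 0.10 with 1 array left out. Smad2 was -0.18 with slide column. Tead1 was 0.0434 and Ltbp1 0.0758 with spike-in scaling, and A3galt2 -0.11 with normexp.

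Among the pathway lists, 1 latency and activation gene was called lower with median scaling, quantile normalization, spike-in scaling, the authors' table, no filter, all arrays above background, slide row and slide column, and 1 to 2 with 1 array left out; 11 were called higher with slide column. Of the receptor and Smad machinery, 16 were higher and 0 lower with spike-in scaling, 4 higher with no filter, 1 higher and 0 lower with slide column, and 5 to 8 higher with 1 array left out. Of the response genes, 12 were higher with slide column, and 0 to 1 lower with 1 array left out. Of all features, 32.2% were called higher with spike-in scaling, 4.32% with no filter and 5.24% with slide column. With 1 array left out, 12.5% to 14.4% were. Called lower were 7.54% with spike-in scaling and 8.56% with slide column. The cause of the shifts in the lists was not tested.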
